A study of Mus musculus with 6 samples.

Results

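The cells described here are the immature neutrophils of cluster 0 that were called as still cycling. They are the cells of the deposited cell table in cluster 0 at a resolution of 0.1 whose cell cycle phase was called S or G2M, 1178 of the 69776 kept cells of the series and 6.12% of the 19261 cells of cluster 0. Of them, 442 were called S and 736 G2M. The 3 femur libraries gave 397, 96 and 447 of these cells and the 3 mandible libraries 52, 121 and 65. The phase and the cluster were both taken from the RNA of the same cells, so what sets these cells apart from G1 cells or from other clusters is given as a description, with no test. The comparison of femur with mandible did not enter the choice and was tested.

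The series is droplet single-cell RNA sequencing, in which each RNA molecule is counted once by its unique molecular identifier (UMI), of marrow cells kept on a magnetic column for surface CD11b. The mice were untreated C57Bl/6 animals at 2 months of age, with no transgene or deletion named for either group. Femur replicate 1 came from a female and the other 5 libraries from males. The labels name femurs and tibiae as the flushed limb bones, while the published methods name femurs alone. Mandible marrow was flushed from jaws without molars, whose emptied sockets had been rinsed and whose condyle and incisor ends had been taken off. How many mice went into a library is not stated, so p-values measure only the spread between these libraries.

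Neutrophils arise in the marrow from myeloblasts and promyelocytes, which divide and fill primary granules with elastase and myeloperoxidase. At the myelocyte stage the cells switch to secondary granules filled with lactoferrin, cathelicidin and neutrophilic granule protein, under the transcription factor C/EBP epsilon, and division stops after it. Gelatinase and the other cargo of tertiary granules follow in cells that no longer divide. In the cycle itself, genes of DNA replication are switched on by E2F factors for S phase, and genes of mitosis later, through promoters that often carry a CHR element and CCAAT boxes.

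The promoters of 5 cycle and granule genes that mark the cells are shown next, with the letters of these elements where they occur. Each line runs 5′ to 3′ and covers 150 bases before the RefSeq start, moved upstream where an annotated exon lay in the way. The bases are RefSeq's on GRCm38.p6, which is mm10. The motifs, searched on both strands, were the CHR (TTTGAA or TTCGAA), the CCAAT box (CCAAT), the E2F site (TTTCCCGC, TTTCGCGC, TTTGCCGC or TTTGGCGC) and the C/EBP site (TTGCNNAA). Capitals mark the CHR and CCAAT box in Top2a and Mki67, the E2F site and CCAAT box in Rfc1, and the C/EBP site alone in Ltf and Ngp, where it overlaps a CCAAT box in Ltf. The first 3 were taken by their UMI counts within the mitosis and replication lists, and those of Ltf and Ngp were added as secondary granule markers, as was that of Camp, of which 89 bases outside annotated exons held no C/EBP match and are not printed. Pcna, also taken by its count, is not shown because the whole stretch lies in annotated exons.
Top2a, chr11:99024190-99024339, minus strand: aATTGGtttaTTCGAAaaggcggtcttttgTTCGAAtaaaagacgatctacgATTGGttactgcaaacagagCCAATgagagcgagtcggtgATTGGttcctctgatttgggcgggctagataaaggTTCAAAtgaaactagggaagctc
Mki67, chr7:135716380-135716529, minus strand: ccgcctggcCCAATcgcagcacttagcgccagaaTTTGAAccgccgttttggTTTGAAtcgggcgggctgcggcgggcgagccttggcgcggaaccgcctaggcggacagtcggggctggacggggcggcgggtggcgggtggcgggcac
Rfc1, chr5:65335671-65335820, minus strand: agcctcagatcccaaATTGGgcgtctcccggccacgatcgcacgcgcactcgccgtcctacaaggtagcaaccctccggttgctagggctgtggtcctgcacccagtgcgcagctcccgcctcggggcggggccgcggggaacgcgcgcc
Ltf, chr9:111019121-111019270, plus strand: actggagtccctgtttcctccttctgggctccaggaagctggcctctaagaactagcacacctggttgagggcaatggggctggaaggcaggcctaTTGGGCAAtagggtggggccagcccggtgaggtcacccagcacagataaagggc
Ngp, chr9:110419597-110419746, plus strand: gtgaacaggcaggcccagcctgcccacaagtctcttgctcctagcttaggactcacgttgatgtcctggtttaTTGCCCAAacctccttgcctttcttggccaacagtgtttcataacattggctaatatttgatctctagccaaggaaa

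The promoter of Top2a, the topoisomerase that untangles chromosomes before mitosis, held 3 CHR matches and 4 CCAAT boxes. That of Mki67, the Ki-67 proliferation antigen, held 2 CHR matches and 1 CCAAT box. Rfc1, the large subunit of the clamp loader at the replication fork, held 1 CCAAT box and no E2F match. Ltf and Ngp each held 1 C/EBP match. Over the 150 bases before the start, a CHR match was found in 10 of the 35 mitosis promoters in the table (28.6%) against 9.89% of all 27025 promoters, and a CCAAT box in 25 of them (71.4%) against 25.3%. An E2F match was found in 7 of 34 replication promoters (20.6%) against 1.26% of all, and a C/EBP match in 3 of 9 secondary granule promoters (33.3%) against 5.48%. The 27025 promoters leave out those on chr18, as do the list counts. Among 6032 promoters of genes tested between sites, the shares were 6.71% for the CHR, 29.3% for the CCAAT box, 2.57% for E2F and 4.16% for C/EBP. These shares describe letters in a window and carry no test.

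The cells carried the markers of both programmes. At least 1 UMI of Ltf, lactoferrin, was counted in 99.7% of them, against 60.4% of the G1 cells of cluster 1 (99.3% and 22.1% with each cell thinned to 1000 UMIs), and at least 1 UMI of Top2a or Mki67 in 964 of 1178 (81.8%). The latter share was 97.0% in the cells called G2M and 56.6% in those called S, against 19.9% in cluster 0 cells in G1, 99.3% in the cycling cells of cluster 4, the earlier neutrophil cluster, and 6.47% in G1 cells of cluster 1, which should lack both. Thinning left out 13 members. Thinned, Mki67 was seen in 42.2% of G2M cells, 14.3% of S cells, 2.33% of G1 cells and 0.895% of the cluster 1 cells. Unthinned, those shares were 91.3%, 44.3%, 15.5% and 3.71%. The cluster 1 cells had a median of 4615.5 UMIs. The deposited table holds labels from 2 references, which differ on these cells. The ImmGen labels name 1156 of the 1178 cells neutrophils (98.1%) and 14 eosinophils. The MouseRNA labels name 710 granulocytes (60.3%) and 437 monocytes (37.1%), against monocyte shares of 14.4% among the G1 cells of cluster 0 and 50.7% among the cycling cells of cluster 4.

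Many of the calls lay close to their threshold. A cell was called cycling once its S or G2M score, a relative expression score with no unit, passed 0. The S score of S cells had a median of 0.0445, and 316 of them (71.5%) lay within 0.1 of 0. The G2M score of G2M cells had a median of 0.433, with 131 (17.8%) within 0.1. The scores have different spreads, with medians of -0.145 for S and -1.66 for G2M among G1 cells, so these shares do not rank the calls. On the other side of the threshold, 4557 of the 18083 G1 cells (25.2%) had a higher score within 0.1 of 0. In clusters 1, 2 and 3, 386 of 15824, 190 of 9629 and 152 of 7914 cells were called S, against 442 of 19261 in cluster 0. G2M calls there were 16, 1 and 0, against 736 in cluster 0. The S call was thus not particular to cluster 0.

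Top2a and Mki67 are themselves in the G2M score, so their levels along it are a description of how far members lie from the threshold. In G1 cells from -0.1 to 0, Top2a stood at 19.1 counts per 1000000 UMIs (CPM) and Mki67 at 35.3 CPM. In the 447 members just inside, from 0 to 0.1, these were 142 CPM and 198 CPM, with a median of 3272 UMIs per cell against 7791 just outside. In the 355 members at 0.5 or more, at a median of 16470 UMIs, they reached 489 CPM and 536 CPM, and every one of these cells held a UMI of Mki67. Members just inside the threshold were thus both poorer in these genes and shallower than those far inside it. The cells called S or G2M in clusters 1, 2 and 3 held 31.2, 10.1 and 12.9 CPM of Top2a, against 319 CPM in those of cluster 0.

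**Figure D1:**
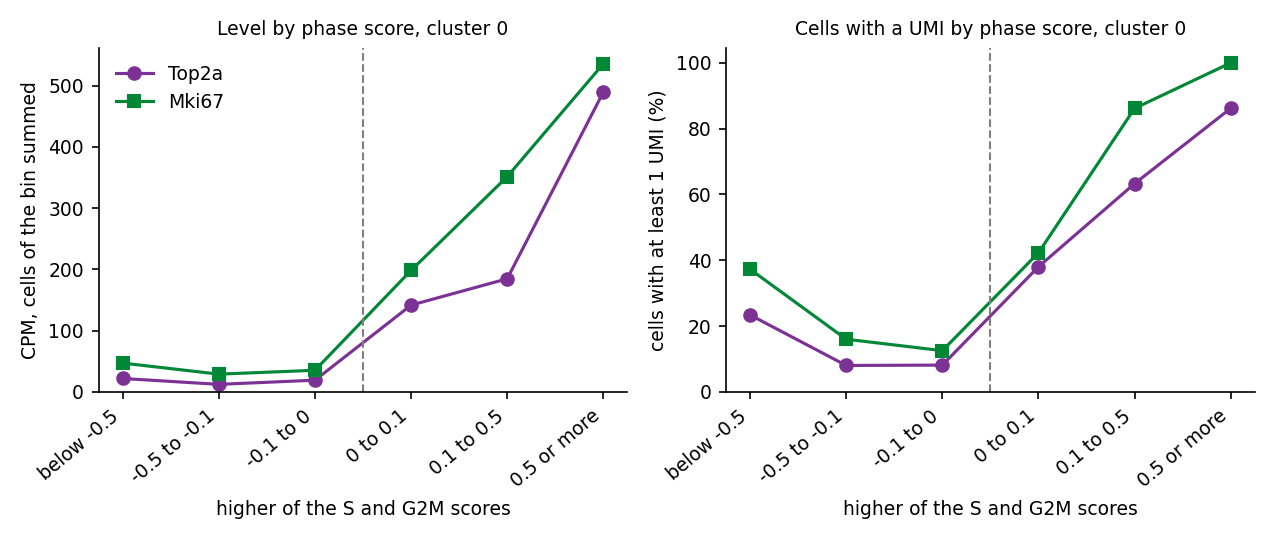
Cluster 0 cells binned by the higher of their S and G2M scores (x axis, no unit; the dashed line is the threshold of the call at 0), with the CPM of Top2a and Mki67 in the summed cells of each bin on the left and the percent of cells with at least 1 UMI on the right. Mki67 goes from 35.3 CPM just below the threshold to 198 CPM just above it and 536 CPM at a score of 0.5 or more.

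A few libraries stood apart. The cells of femur replicate 1 had a median of 1790 UMIs, against 11481 to 14259 in the other 5, and 272 of its 397 members (68.5%) held under 5000 UMIs, against 15, 39, 7, 13 and 2 members in the others. In that library 36.8% of the cluster 0 cells under 5000 UMIs were called cycling and 4.98% of the deeper ones. Shallow cells were called cycling more often than deeper ones in the other 5 libraries too. The shares were 13.6% against 3.67% and 34.2% against 5.97% in femur replicates 2 and 3. They were 9.46% against 1.97% and 12.7% against 4.71% in mandible replicates 1 and 2. In mandible replicate 3, on 2 shallow cells called cycling, they were 3.92% against 3.25%. Femur replicate 1 had the highest share among shallow cells, close to that of femur replicate 3, and the most shallow members. Mandible replicate 1 gave the fewest members and lay at 45.8 on the first principal component of the summed profiles, which held 45.9% of the variance, with the others between -19.9 and 10.6. Summed over members, the libraries held 2670388, 1207185 and 6965641 UMIs for femur and 588461, 1952997 and 1133706 for mandible. No cell barcode was shared between members of different libraries, and 19 members had a barcode that also occurred among the kept cells of another library. Femur replicate 1 was also the only female library, so sex and its shallow cells cannot be told apart in it.

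Cycling cells made up 12.2%, 4.14% and 6.43% of cluster 0 in the femur libraries and 2.21%, 5.05% and 3.27% in the mandible. The sites overlapped, with mandible replicate 2 above femur replicate 2. The means were 7.59% ± 4.16 (SD, n = 3) in femur and 3.51% ± 1.44 in mandible, a difference of -4.09 percentage points (two-sided exact permutation test, p = 0.2; 3 against 3 libraries cannot go below 0.1). Without femur replicate 1 the femur mean was 5.28% (exact permutation p = 0.4). Among cells with at least 5000 UMIs the means were 4.87% ± 1.16 and 3.31% ± 1.37 (exact permutation p = 0.2), with femur replicate 1 at 4.98%.

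**Figure D2:**
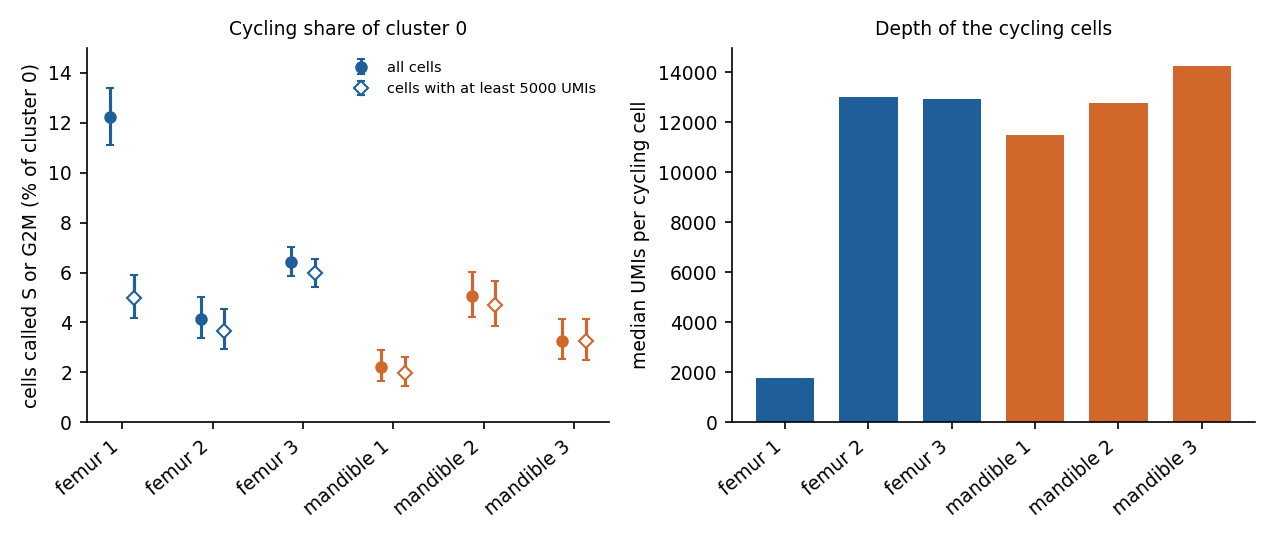
Left, percent of cluster 0 cells called S or G2M in each library, over all kept cells (filled) and over cells with at least 5000 UMIs (open), with 95% exact Clopper-Pearson intervals that cover counting error only; right, median UMIs per cycling cell. Femur replicate 1 is highest over all cells (12.2%) and comes to 4.98% among the deeper cells, below femur replicate 3 (5.97%).

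S cells were 40.3%, 31.2% and 34.5% of the cycling cells in femur and 26.9%, 40.5% and 53.8% in mandible. Mandible held both the lowest and the highest share, and the means of 35.3% ± 4.59 and 40.4% ± 13.5 did not separate (exact permutation p = 0.6). In cells with at least 5000 UMIs the means were 24.0% and 38.8%, a difference of 14.8 percentage points (exact permutation p = 0.3), and in cells with a score of at least 0.1 they were 13.2% and 21.4% (exact permutation p = 0.5). Without mandible replicate 3 the difference turned from 5.09 to -1.63 percentage points. Because the cells differ in depth, S cells supplied 15.7%, 27.0% and 33.4% of the summed UMIs in femur and 24.2%, 45.1% and 54.5% in mandible. The site medians of the replication, mitosis and histone lists below are therefore also given within each phase. Single cycle genes are given over both phases together.

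Transcripts of primary granules were far below those of the cycling cells of cluster 4. The 6 genes of the primary granule list were those of the proteases Prtn3, Prss57, Ctsc, Elane and Ctsg and of the peroxidase Mpo. They summed to 140, 81.2 and 83.3 CPM in the femur libraries and 27.2, 106 and 95.3 CPM in the mandible. The same genes summed to 1358 to 3676 CPM in cycling cluster 4 cells and to 17.1 to 34.6 CPM in G1 cells of cluster 0. The cells thus held a median of 0.0392 times the cluster 4 level and 3.09 times the G1 level. Elane, neutrophil elastase, was 21.7, 13.3 and 12.1 CPM in femur and 5.10, 15.9 and 13.2 CPM in mandible, against 620 to 1640 CPM in the cycling cells of cluster 4.

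Transcripts of secondary granules stood at about the level of both neighbours. The 10 genes summed to between 98546 and 112245 CPM in every library, or 0.94 to 1.11 times G1 cells and 0.92 to 1.01 times cycling cluster 4 cells. Ltf was 10703, 9685 and 9150 CPM in femur and 9720, 8873 and 8331 CPM in mandible. Camp, the cathelicidin precursor, was 34312, 39249 and 38479 CPM in femur and 41117, 36044 and 37946 CPM in mandible. Ngp was 33270, 33375 and 32985 CPM in femur and 36213, 31326 and 30305 CPM in mandible. The 6 libraries lay close together for all 3 genes. Against G1 cells of the same library, Ltf had a median log2 ratio of -0.52, Camp of 0.29 and Ngp of -0.15, in each case the median over 6 libraries. Cebpe, which encodes C/EBP epsilon, had a median log2 ratio of 0.46 and lay above G1 in 6 of 6 libraries.

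Tertiary granule and late genes, 8 genes that include Mmp9 (gelatinase B) and Retnlg (a resistin-like secreted protein), lay between the neighbours. They summed to 3508, 3107 and 5126 CPM in femur and 3858, 7588 and 6523 CPM in mandible, against 6918 to 10596 CPM in G1 cells and 1439 to 3130 CPM in cycling cluster 4 cells. Within the cycling cells they were higher in S than in G2M in every library, by 1.54 to 2.52 times.

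**Figure D3:**
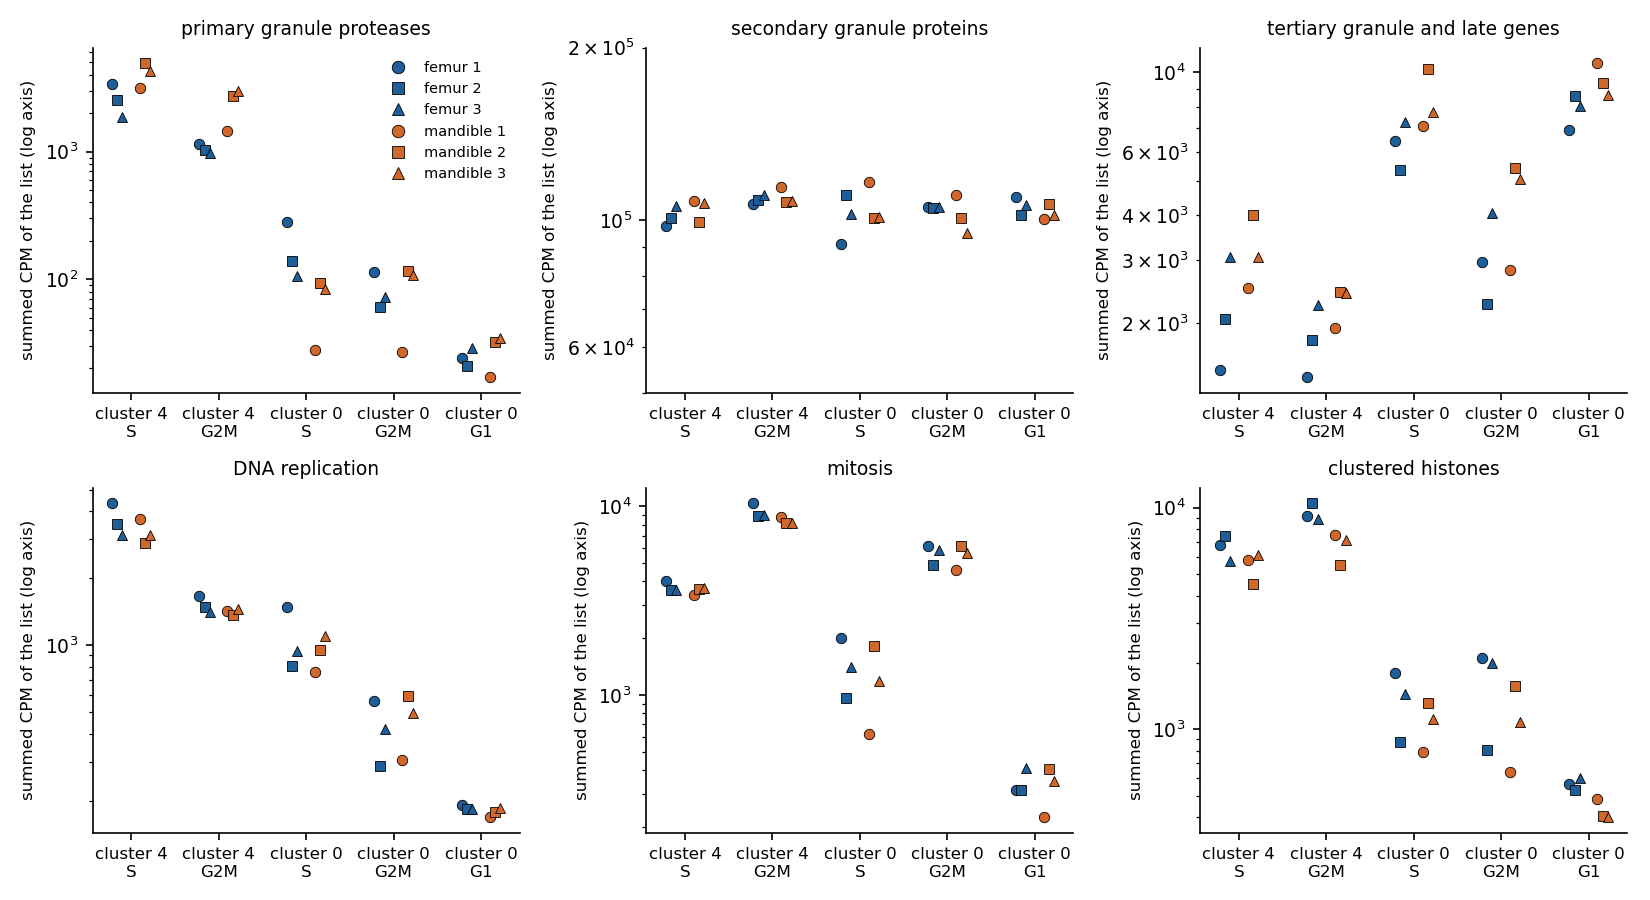
Summed CPM (log axis) of 6 gene lists in S and G2M cells of cluster 4 and in S, G2M and G1 cells of cluster 0, with 1 point for each library, femur in blue and mandible in orange. The primary granule list, headed primary granule proteases though it includes Mpo, lies between 26.9 and 279 CPM in the S and G2M cells of cluster 0. That is below every cluster 4 point (977 CPM or more), while the secondary granule genes stay within a narrow band in all 5 populations.

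The cycle programme itself was present at part of the cluster 4 level. The 41 mitosis genes summed to 5528, 3826 and 4378 CPM in femur and 3650, 4187 and 3224 CPM in mandible, 9.19 to 17.5 times G1 and 0.52 to 0.68 times cycling cluster 4 cells. The 42 replication genes summed to 705, 427 and 592 CPM in femur and 415, 753 and 824 CPM in mandible, 2.32 to 4.42 times G1 and 0.18 to 0.37 times cluster 4. Since many of these genes are in the phase scores, the 26 replication and 15 mitosis genes outside the scores were also summed. They stood at a median of 2.58 and 10.8 times G1.

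Clustered histone genes, whose transcripts rise with DNA synthesis, summed to 2050, 824 and 1809 CPM in femur and 676, 1448 and 1095 CPM in mandible, and to 5091 to 9236 CPM in cycling cluster 4 cells. The cycling cells held a median of 0.20 times the cluster 4 level and 2.87 times the G1 level. S cells held 0.72 to 1.23 times the level of G2M cells in these counts. How fully histone transcripts are captured in such libraries was not tested, so no reading of the S call is drawn from this ratio. Copies of these genes are nearly identical, and how reads were split between them is uncertain. Cytosolic ribosomal protein genes summed to 29253 to 35403 CPM, 1.26 to 1.51 times G1 and 0.49 to 0.64 times cluster 4.

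Of 2676 genes with a mean of at least 50 CPM in either population, 87 were over 2-fold higher in cycling than in G1 cells of cluster 0 in all 6 libraries and 4 were at under 0.5 times the G1 level. The leading ones were mitotic: Hmmr, a spindle and hyaluronan-binding protein, had a median log2 ratio of 3.69 (2.91 to 4.43 over libraries), Ube2c, a ubiquitin-conjugating enzyme of the anaphase-promoting complex, 3.68 and Top2a 3.65. Cdc20, an activator of that complex, stood at 3.63, and Tpx2, Birc5, Mki67 and Cenpf at 3.55, 3.52, 3.47 and 3.43. All 8 are in the G2M score, so the choice of the cells sets their direction. At the other end lay Mmp8, neutrophil collagenase, at -1.83 (-2.83 to -1.05), Acvrl1 at -1.81, Thbs1 (thrombospondin 1) at -1.57 and Elovl7 at -1.49. Mmp9 stood at -1.17. These ratios are on the log2(CPM + 5) scale, which understates low genes.

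Top2a and Mki67 in single libraries show how far the cells vary. Top2a was 432, 145 and 337 CPM in femur and 98.6, 356 and 185 CPM in mandible, against 4.88 to 21.5 CPM in G1 and 617 to 1227 CPM in cycling cluster 4 cells. Mki67 was 544, 404 and 400 CPM in femur and 348, 318 and 289 CPM in mandible, against 15.3 to 39.9 CPM in G1 and 441 to 771 CPM in cluster 4. For both genes every library lay above its own G1 cells and below its own cycling cluster 4 cells, with Top2a lowest in mandible replicate 1.

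S and G2M cells were also set against each other within each library. Of 2743 genes, 55 were at under 0.5 times the G2M level in S in all 6 libraries and 0 over 2-fold higher. Cdc20 had a median log2 ratio of S over G2M of -2.88, Kif20b of -2.83, Cenpf (a kinetochore protein) of -2.77 and Hmmr of -2.55. Higher in S were Thbs1 at 1.93, Mmp8 at 1.76, Casp8ap2 at 1.60, the replication clamp Pcna at 1.43 (0.96 to 2.11), Slbp, which binds histone mRNA, at 1.42 and the DNA ligase Lig1 at 1.25. Casp8ap2, Pcna and Slbp are in the S score, and Cdc20, Kif20b, Cenpf and Hmmr are in the G2M score, so the call itself sets their direction. Thbs1, Mmp8 and Lig1 are in neither.

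Against cycling cells of cluster 4, 86 of 2837 genes were at under 0.5 times in all 6 libraries and 5 over 2-fold higher. The lowest were the primary granule genes Elane at -5.83 (-6.65 to -4.89), Prtn3 at -4.42, Mpo at -4.28 and Ctsg at -3.75. The histone genes Hist1h2ae at -3.14 and Hist1h1b at -3.00 followed. Higher were Nup210l at 2.15 (1.11 to 2.90), Acod1, which makes itaconate, at 1.80, the cytokine gene Il1b at 1.66, Clec4d at 1.49, the decoy receptor Il1r2 at 1.45 and Mmp9 at 1.34. Interferon response genes as a list were 1.41 to 2.33 times cluster 4. Cebpe stood at -0.21, Camp at -0.19, Ngp at 0.02 and Ltf at 0.24.

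Femur and mandible differed in 1 of the 7525 genes tested (0.0133%; edgeR quasi-likelihood, Benjamini-Hochberg adjusted p under 0.05). This was Amelx (ENSMUSG00000031354, mm10 chrX:169176114-169187200, minus strand), which encodes amelogenin, the main matrix protein of forming enamel. Amelx was 0, 0 and 0 CPM in femur and 30.6, 16.4 and 40.6 CPM in mandible (adjusted p = 0.00128), at least 94.4-fold higher by a floor of 3 counts over the femur libraries. The floor covers counting error only. The 96 UMIs were 18, 32 and 46 in the 3 mandible libraries, in 3, 8 and 13 cells, and 1 cell of each library held 72.2%, 78.1% and 63.0% of them. Without the 5% of cells with the most UMIs, 18, 6 and 15 UMIs of Amelx were left and it no longer passed the filter on low counts. With no filter on low counts edgeR called 73 genes, 35 higher and 38 lower in mandible, 45 of them among those that pass the filter. Of the 73, 2 were Xist, Tsix or Y-linked genes. Among the genes described below, those with the lowest adjusted p were Egr1, Thbs1, Mmp8 and Nt5e higher in mandible, with adjusted p-values of 0.00051, 0.000699, 0.000705 and 0.00107 (edgeR). Lower in mandible these were Cd244a, Atf3 and Gm2245, with adjusted p-values of 0.000343, 0.0119 and 0.0171 (edgeR). Their mandible counts were low, at 1, 13 and 6 UMIs for Cd244a, 1, 14 and 7 for Atf3 and 4, 14 and 4 for Gm2245.

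Amelx was also found in the neighbours of the mandible. It stood at 21.8, 9.40 and 14.5 CPM in G1 cells of cluster 0 and at 5.88, 7.48 and 8.86 CPM in cycling cluster 4 cells, and was called there too (edgeR adjusted p = 0.000171 and 0.000169), where 0.00826% and 0.0164% of the genes tested were called. Of the 19 genes of tooth and bone cells, 9 were at 0 in all 3 femur libraries and 4 of those, Klk4, Mmp20, Dspp and Dmp1, at 0 in the mandible as well. Lepr, the leptin receptor of marrow stromal cells, was at 0 in mandible alone, with 4 UMIs in femur. The list summed to 4.12, 8.28 and 7.61 CPM in femur and 44.2, 38.4 and 72.3 CPM in mandible. In G2M cells alone the sites overlapped, at 3.55, 10.2 and 7.33 CPM in femur and 49.3, 5.60 and 21.3 CPM in mandible. Ambn, ameloblastin, was at 0 in femur and at 5.10, 7.68 and 5.29 CPM in mandible, at least 23.6-fold higher. In mandible replicate 2 all 15 UMIs of Ambn were in 1 cell, as were all 11 of Amtn, amelotin. The part of carried-over tooth RNA in these values was not tested.

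No marker of the cells was called between sites. Ltf, Ngp, Camp, Top2a and Mki67 had adjusted p-values of 1.00 (edgeR). The first 4 overlapped between sites and Mki67 did not, at 400 to 544 CPM in femur and 289 to 348 CPM in mandible. Over all genes tested, 325 (4.32%) had an unadjusted p under 0.05, 158 (2.1%) higher in mandible and 167 (2.22%) lower, and the sites did not overlap for 639 genes (8.49%), 3.48% higher in mandible and 5.01% lower. The values that follow have adjusted p-values of 1.00 in edgeR, with the filter on low counts, unless another is given, and are reported as values without a call.

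Tertiary granule and late genes leaned to the mandible. All 8 of the 8 tested had a fitted log2 difference above 0, with a median of 0.45 against 0.00 over all genes, 50.4% of which lay above 0. The median was 0.40 without femur replicate 1 and 0.50 in cells with at least 5000 UMIs, and 0.23 in S cells and 0.46 in G2M cells taken alone. For 4 genes, Mmp9, Adam8, Fpr1 and Mmp25, the sites did not overlap and the unadjusted p was under 0.05, and 2 genes of the list had such a p without femur replicate 1. The median of the same list was 0.25 in G1 cells and 0.47 in cycling cluster 4 cells of the same libraries.

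Mmp9 was 477, 596 and 587 CPM in femur and 685, 836 and 909 CPM in mandible, a log2 difference of 0.56 ± 0.17 (SE; edgeR unadjusted p = 0.00694). Every mandible library lay above every femur library. Adam8, a membrane protease of neutrophil granules, was 104, 72.1 and 96.8 CPM in femur and 107, 166 and 174 CPM in mandible (0.73 ± 0.20, unadjusted p = 0.0027). The lowest mandible value of Adam8 was just above the highest femur value. Fpr1, the formyl peptide receptor, had a log2 difference of 0.64 ± 0.25 and Mmp25, a membrane metalloprotease, of 0.35 ± 0.16.

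Of the 10 secondary granule genes 4 lay above 0 and 6 below, with a median of -0.01. Mmp8 was 545, 393 and 648 CPM in femur and 545, 1320 and 1153 CPM in mandible (0.94 ± 0.28, unadjusted p = 0.00522), with mandible replicate 1 inside the femur range. Mmp8 was among the genes higher in S than in G2M cells, and these values are over both phases together. Across alternative settings its log2 difference ran from 0.43 to 1.21. Olfm4, olfactomedin 4, which is known to vary between neutrophils, was 108, 117 and 110 CPM in femur and 287, 124 and 203 CPM in mandible (0.86 ± 0.25, unadjusted p = 0.00427), with no overlap. Primary granule genes had a median of -0.38 over 5 genes tested, which came to 0.03 in cells with at least 5000 UMIs. The 12 transcription factors of granulopoiesis had a median of 0.03 and the 10 receptors and ligands of mature neutrophils a median of 0.00.

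**Figure D4:**
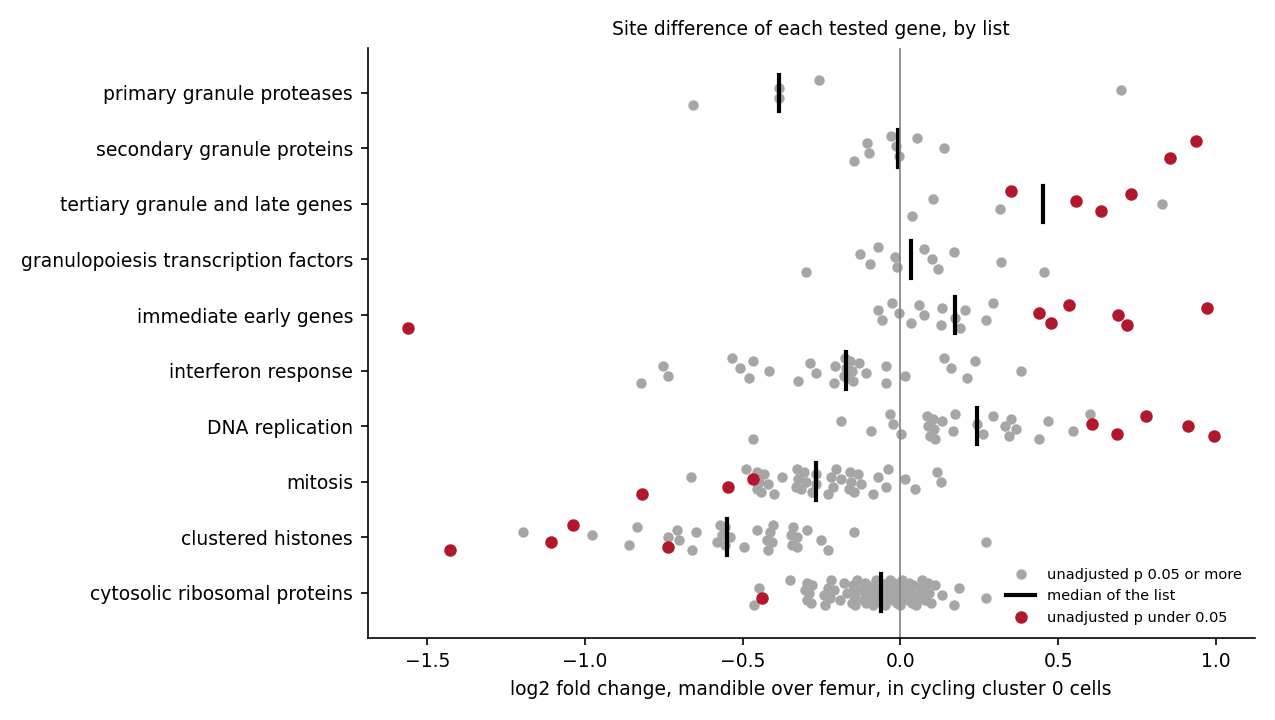
Fitted log2 difference, mandible over femur, of the tested genes of 10 lists in the cycling cells of cluster 0, with 1 point for each gene, a black bar at the median, and red points for an unadjusted p under 0.05. The tertiary granule list lies wholly above 0 with a median of 0.45, and the histone list has a median of -0.55 with 35 of 36 genes below 0.

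Immediate early genes, which cells switch on within minutes of a stimulus, had a median of 0.17, with 16 of 21 above 0. Egr1 was 192, 88.6 and 75.7 CPM in femur and 211, 225 and 240 CPM in mandible (0.97 ± 0.26, unadjusted p = 0.00227). The femur libraries were uneven, and without femur replicate 1 the log2 difference of Egr1 was 1.43 with an edgeR adjusted p of 0.0373. Junb, an AP-1 subunit, was 340, 252 and 415 CPM in femur and 336, 685 and 624 CPM in mandible (0.72 ± 0.25, unadjusted p = 0.0135), so the sites overlapped. Atf3, a stress-induced factor, ran the other way, at 23.2, 7.46 and 18.5 CPM in femur and 1.70, 7.17 and 6.17 CPM in mandible (-1.56 ± 0.44). The lean of the list was also seen in G1 cells, with a median of 0.23, and in cycling cluster 4 cells, with a median of 0.27.

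Outside the lists, Thbs1 and Nt5e had among the lowest unadjusted p-values higher in mandible. Thbs1 was 98.1, 45.6 and 48.1 CPM in femur and 133, 115 and 133 CPM in mandible (1.01 ± 0.24, unadjusted p = 0.000906), with no overlap. In cells with at least 5000 UMIs its log2 difference was 1.31 with an edgeR adjusted p of 0.0145. In S cells alone it was 0.41 (edgeR unadjusted p = 0.221) and in G2M cells alone 1.05, and across alternative settings the adjusted p lay between 0.000699 and 1.00. Nt5e, the ectoenzyme CD73, was 18.3, 13.3 and 16.5 CPM in femur and 22.1, 44.0 and 45.0 CPM in mandible (1.25 ± 0.25, unadjusted p = 0.000276). Both are among the genes lower in cycling than in G1 cells, Nt5e at a median log2 ratio of -1.29. Of the genes lower in mandible, Gm2245 was 17.6, 20.7 and 15.5 CPM in femur and 6.80, 7.17 and 3.53 CPM in mandible (-1.53 ± 0.35, unadjusted p = 0.000765), with no overlap. Also without overlap were 5330438D12Rik at -1.16 ± 0.28, the lectin gene Clec2d at -0.85 ± 0.21 and the receptor gene Cd244a at -1.87 ± 0.54.

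**Figure D5:**
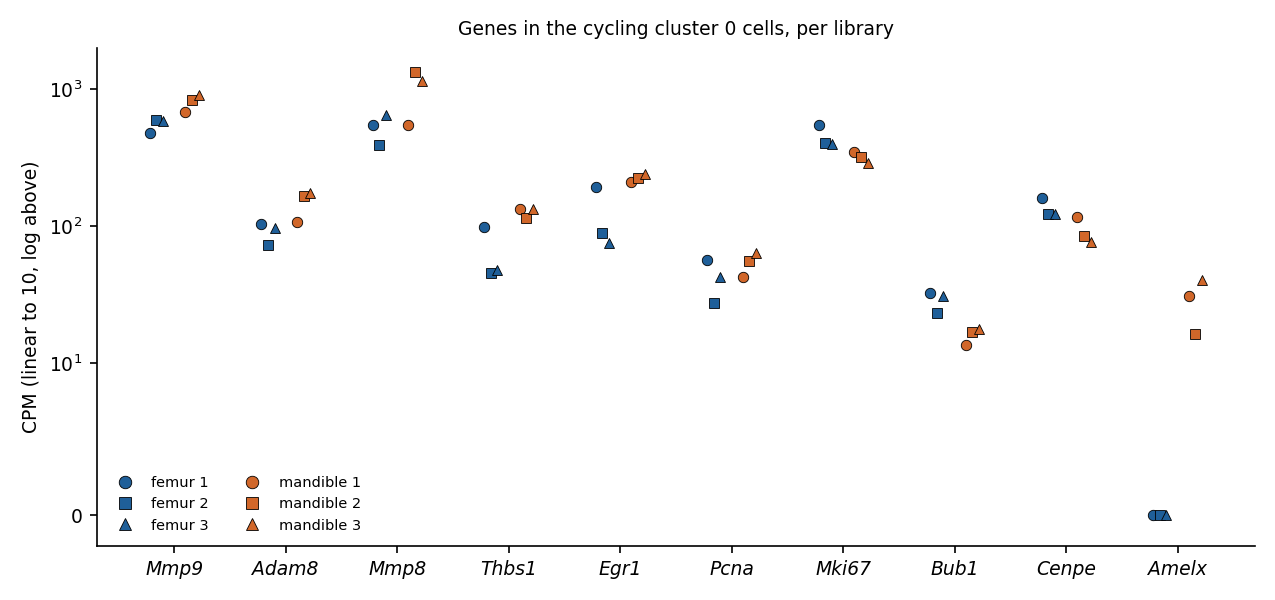
CPM of 10 named genes in the cycling cluster 0 cells of each library (axis linear to 10 and log above), with 1 point for each library and no averages, femur in blue and mandible in orange. Mmp9 separates the sites (477 to 596 against 685 to 909 CPM), Pcna does not (27.3 to 56.9 against 42.5 to 63.5 CPM), and Amelx is at 0 in the 3 femur libraries.

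Genes of replication and of mitosis leaned in opposite directions over all cycling cells, and their medians differed between phases. Replication genes had a median of 0.24, with 26 of 31 above 0, and mitosis genes a median of -0.27, with 37 of 41 below 0. In S cells alone the medians were -0.10 and 0.05, and in G2M cells alone 0.26 and -0.06. The number of genes passing the filter was 21 for replication and 26 for mitosis in S cells, and 17 and 41 in G2M cells, so all but the last of these medians are over fewer genes. The share of UMIs from S cells was higher in mandible replicates 2 and 3 than in any femur library.

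Among replication genes, Mcm2, a subunit of the replicative helicase, was 9.36, 4.14 and 9.33 CPM in femur and 17.0, 16.9 and 15.9 CPM in mandible (1.00 ± 0.32). Pcna was 56.9, 27.3 and 42.8 CPM in femur and 42.5, 55.3 and 63.5 CPM in mandible (0.35 ± 0.23), with overlap. Of the 31 replication genes, 5 had an unadjusted p under 0.05, all higher in mandible, and of the 41 mitosis genes 3, all lower. Without femur replicate 1 these counts were 4 and 1. Most of these genes are in the phase scores by which the cells were chosen. Outside the scores, 1 of 17 replication genes and 0 of 15 mitosis genes had such a p in the full fit. Their medians were 0.17 and -0.23. Among the mitosis genes, Bub1, a spindle checkpoint kinase, was 32.2, 23.2 and 30.6 CPM in femur and 13.6, 16.9 and 17.6 CPM in mandible (-0.82 ± 0.24, unadjusted p = 0.00464). Mki67, whose values are given above, had a log2 difference of -0.47 ± 0.17 (unadjusted p = 0.0151), and -0.37 without femur replicate 1. Cenpe, a kinetochore motor, was 161, 123 and 122 CPM in femur and 117, 85.0 and 75.9 CPM in mandible (-0.55 ± 0.20). The 23 tested cyclins, kinases, inhibitors and E2F factors had a median of -0.04.

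Of 36 histone genes tested, 35 had a log2 difference below 0, with a median of -0.55, of -0.37 without femur replicate 1, of -0.28 in S cells and of -0.66 in G2M cells, each over the fewer genes that passed the filter there. The median was -0.45 in G1 cells and -0.54 in cycling cluster 4 cells, with 61 genes below 0 and 0 above in the latter. Hist1h2bc was 59.2, 70.4 and 61.4 CPM in femur and 54.4, 30.7 and 34.4 CPM in mandible (-0.74 ± 0.23), without overlap. In the summed list the sites overlapped, with femur replicate 2 at 824 CPM below 2 of the mandible libraries.

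The medians of other programmes follow, some of which rested on femur replicate 1. Ribosomal protein genes stood at -0.06 with 56 of 80 below 0, and without that library at -0.19 with 76 below. Nuclear genes of oxidative phosphorylation stood at 0.04 with 47 above 0 and 31 below, and without it at -0.05 with 21 above and 57 below. Interferon response genes had a median of -0.17 with 24 of 30 below 0, and without it of -0.30 with 25 of 29 below, and 0 of the 30 reached an unadjusted p of 0.05 in the full fit. The interferon median was -0.22 in G1 cells of cluster 0, with 33 genes below 0 and 4 above. It was -0.22 in cycling cluster 4 cells, with 30 below and 7 above. Mitochondrially encoded genes had a median of -0.08, and of 0.09 without femur replicate 1. Of these 13 genes, 4 were lower in mandible at an unadjusted p under 0.05, and 2 without that library. For mt-Nd4l, mt-Nd6 and mt-Nd5 the sites did not overlap, with edgeR unadjusted p-values of 0.00126, 0.0037 and 0.0197. Proteasome genes stood at -0.04, genes of endoplasmic reticulum folding at 0.00 and heat shock genes at -0.13.

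Markers of other cells were low but uneven. Monocyte genes summed to 808 to 855 CPM in femur and 828 to 992 CPM in mandible, most of it Ly6c2, which neutrophil precursors also express. Their median log2 difference was 1.71 over 7 genes tested, 4 of them higher at an unadjusted p under 0.05. In cells with at least 5000 UMIs 5 genes were tested, with a median of -0.02 and 2 higher at an unadjusted p under 0.05. Without femur replicate 1 the monocyte median was 2.45, with 5 genes higher at such a p, and without mandible replicate 1 it was 2.24. In G1 cells of cluster 0 it was 0.34 and in cycling cluster 4 cells 1.26. Each median is over the genes that passed the filter there. Macrophage genes summed to 241, 143 and 70.9 CPM in femur and 59.5, 66.6 and 88.2 CPM in mandible. In cells with at least 5000 UMIs femur replicate 1 came to 71.5 CPM. Single cells set some values, since 128 UMIs of the basophil protease Prss34 were in 1 cell of femur replicate 2, and 27 of the 28 UMIs of the platelet gene Ppbp were in 1 cell of mandible replicate 1.

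The site effect was then compared with that in the cells on either side. Against G1 cells of cluster 0, 0 of 7525 genes (0%) differed in site effect by limma on the differences within libraries (adjusted p under 0.05), and 115 (1.53%) had an unadjusted p under 0.05. The lowest were Amelx and the globin genes Hbb-bt, Hbb-bs and Hba-a1 (adjusted p = 0.999, limma). For Amelx the difference was -2.48, although its CPM in mandible were higher in cycling than in G1 cells. With no count in the femur cycling cells, that value depends on the prior count and on depth. Erythroid genes summed to 52.3 to 222 CPM in mandible G1 cells, against 18.7 to 39.4 CPM in the cycling cells of the same libraries. In femur they were 21.2, 28.5 and 12.6 CPM in G1 cells against 50.6, 28.2 and 97.9 CPM in the cycling cells, so both sites entered the difference.

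Against cycling cells of cluster 4, 0 of 7524 genes (0%) passed, and 328 (4.36%) had an unadjusted p under 0.05. Elane had the lowest p, with a log2 site difference of -0.26 in the cycling cells of cluster 0 and 1.01 in those of cluster 4. The difference of -1.48 ± 0.22 had a limma adjusted p of 0.546, and in S cells alone it was -1.76 with an adjusted p of 0.00594. Those S cells are thin: the whole primary granule list summed to 28.1 CPM of 142385 UMIs in mandible replicate 1. It summed to 279 CPM in femur replicate 1, where 91.25% of S cells held under 5000 UMIs. In cells with at least 5000 UMIs Elane was not called. Mpo ran the same way as Elane, at -0.66 and 0.95 (difference -1.57 ± 0.28). These comparisons draw on the same libraries, so the 2 site effects are not independent measurements. DESeq2 called 1 gene by site, as edgeR did, and gave 153 genes an unadjusted p under 0.05.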

How the data were processed

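The authors deposited 10x Genomics count matrices (UMI counts per gene and cell, whole and unnormalized) and a cell table with the percent of mitochondrial counts, S and G2M scores, phase and cluster. Per the labels, Cell Ranger 7.0.1 was used, while the matrix headers name 7.1.0, on mm10; use of strand is not given in the sources used here. Cells of 600 to 6000 genes and at most 20% mitochondrial counts had been retained; the authors then regressed out the difference of the cycle scores, integrated the libraries in Seurat and clustered the result. Clusters were therefore formed with part of the cycle signal removed. Their marker table was not used.

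UMI counts of the member cells were summed per library. Sites were compared with edgeR 4.0.16 (R 4.3.3; quasi-likelihood, TMM, low-count filter), site effects between populations with limma 3.58.1 on log2 CPM differences (prior count 2), and shares by exact permutation. DESeq2 1.42.0 was an alternative. The edgeR fit was tested on simulated data. Of the 7525 genes, 200 were changed, and it recovered 57% of 2-fold and 90% of 4-fold changes, with 16 false calls. False calls are to be set against the genes called, not against all genes. The limma fit was tested on simulated populations drawn alike from the means and depths of the cycling cells, so the depth of G1 cells did not enter. It recovered 77% of 4-fold changes, with 9 false calls among 7138 genes. No doublet caller was run; leaving out the 5% of cells with most UMIs was an alternative. Depth limits precision most in mandible replicate 1. Gene positions came from GENCODE vM21 by identifier (32235 of 32285 matched).

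Genes were named by rule: the markers, genes the study names for cluster 0, called genes, up to 8 per direction with the lowest p and no overlap, the most abundant members of each list and those without overlap, and the extremes of each ratio. Ltf and Ngp promoters were added later. Members and lists were chosen with earlier results of these data known.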

Additional observations from a re-analysis of the deposited data

How the results depend on the processing

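Amelx was called by site in every alternative that could test it, with adjusted p-values from 1.44e-08 (DESeq2) to 0.0496 with the filter on low counts and 5.55e-32 without it (edgeR); taking S cells only, G2M cells only, or leaving out the top 5% of cells by UMIs gave 0 calls, because Amelx then failed the filter on low counts. Leaving out each library in turn gave 1 to 2 site calls, the added gene being Egr1 without femur replicate 1. Without the filter 73 genes were called (35 higher, 38 lower), 45 past the filter and 28 under it; the cause was not tested. With at least 5000 UMIs per cell, chosen after seeing the data, 2 genes were called, Thbs1 being added. The differences in site effect against G1 cells gave 0 calls throughout. Those against cycling cluster 4 cells gave 0 to 4 when each library was left out (4 globin genes without mandible replicate 1), 1 in S cells only (Elane), and 1 with at least 5000 UMIs (Hbb-bs). As each library was left out, the S share difference ran from -1.63 (without mandible replicate 3) to 11.8 percentage points and that of the cycling share from -5.81 to -1.78; with at least 5000 UMIs they were 14.8 and -1.56.

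Deviations of samples with the same title number correlated at -0.107, -0.308 and 0.145, so these numbers did not pair the samples. With that replicate block 1 gene was called by site, 0 against G1 and 1 (Hbb-bs) against cluster 4. A replicate block on the library number shared by 4 male libraries, whose 2 pairs correlated at 0.352 and 0.323, gave 4 calls (Amelx, Egr1, Thbs1 and AY036118).

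Of 607 alternative values for 37 named genes, 578 kept direction and side of the threshold, 18 newly passed it and 11 turned sign, all in 3 genes near 0. Ltf was 0.084 in S cells and 0.00018 with the library block. Ngp ran from -0.116 to 0.10 as each library was left out, above 0 without femur replicate 2, femur replicate 3 or mandible replicate 3, and was 0.0915 in S cells, 0.0051 with DESeq2, 0.0051 with its size factors and 0.0415 with the library block. Camp ran from -0.0538 to 0.123 as each library was left out, below 0 without femur replicate 1 or mandible replicate 1. The cause was not tested.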
